A study of Mus musculus with 24 samples.

Results

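Livers of weaned males from 2 mouse lines that both lack Cyp1b1 were compared after a maternal diet without vitamin A. The members are 5 of the 24 arrays of the series, chosen by their labels: 3 of R-Cyp1b1-null, a substrain of the Cyp1b1-null mice that resists diet-induced obesity, and 2 of Cyp1b1-null. Every dam received the defined deficient diet from embryonic day 4.5 until the offspring were killed at postnatal day 21, and each array carried RNA pooled from 2 males. The comparison is thus between substrains, with the deletion and the diet shared. For comparison, weaned mice of both lines on the sufficient diet (3 and 2 arrays) and wild-type C57Bl/6J mice on the deficient diet (3 arrays) are used. Some fits also draw on weaned wild-type livers on the sufficient diet and on newborn livers. The newborn livers are of wild type and Cyp1b1-null on both diets. Separate litters are not stated for the pools, so p-values measure the spread between these arrays.

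Cyp1b1 is a cytochrome P450 that oxidises oestrogens, retinoids and polycyclic hydrocarbons, and it is expressed mainly outside hepatocytes. The liver stores vitamin A as retinyl esters in stellate cells, and retinoic acid made from it acts through nuclear receptors. Hepatic fatty acid synthesis runs from citrate through Acly, the acetyl-CoA carboxylases, Fasn, Elovl6 and Scd1, and its genes are driven by the transcription factors encoded by Srebf1 and Mlxipl. Liver at weaning is also leaving its fetal programme, with genes such as Afp and Igf2 being silenced.

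Each value is a log2 signal from which the array's own 75th percentile was subtracted, so 0 is that percentile, and a difference is R-Cyp1b1-null minus Cyp1b1-null. The 75th percentile lay between 155.2 and 336.5 intensity units on the 5 arrays. The 2 Cyp1b1-null arrays had 66.3% and 66.0% of probes well above background, against 53.8%, 59.8% and 34.2% on the R-Cyp1b1-null arrays, the third of which was the dimmest. The lowest signal that counted as well above background was -5.38 and -5.49 on the Cyp1b1-null arrays and -2.80, -3.63 and -1.62 on the R-Cyp1b1-null arrays, so genes low in the latter are measured less well. Correlations over probes were 0.991 between the Cyp1b1-null arrays, 0.925 to 0.972 among the R-Cyp1b1-null arrays and 0.900 to 0.947 between lines. The Cyp1b1-null arrays shared 1 slide and scan day, while the R-Cyp1b1-null arrays lay on 3 other slides scanned on 2 other days, each beside a wild-type array. Line and slide cannot be told apart in this comparison.

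Most measured genes of fatty acid synthesis and cell division read higher in R-Cyp1b1-null livers, and most of amino acid breakdown and drug metabolism and several fetal genes read lower. The gene with the smallest p, Ctse, was 21.6-fold higher in R-Cyp1b1-null, and Sult1e1 was 10.8-fold lower. No gene of 17418 tested passed an adjusted p of 0.05 (0% higher, 0% lower; limma, Benjamini-Hochberg; smallest adjusted p 0.0692), while 2155 had an unadjusted p under 0.05. Of these, 1682 (9.66%) were higher and 473 (2.72%) lower, a split that turned to 804 higher and 1631 lower under quantile normalization. The median difference of all genes was 0.13 with percentile scaling and -0.09 with quantile normalization, and 60.2% of genes were above 0, so medians of the main lists are also given relative to the median of all genes under both scalings.

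The fit across the 5 arrays had 3 residual degrees of freedom. The 10 groups of the series hold newborn as well as weaned livers. When the spread was shared over 20 samples of all 10 groups, newborn ones included, without the 2 arrays of low correlation with the rest (the third R-Cyp1b1-null sufficient and the third wild-type deficient array), 584 genes were called higher (3.35%) and 141 lower (0.810%). Of these calls, 174 higher and 78 lower genes were well above background on all 5 arrays. With those 2 arrays kept, the same fit called 0 genes. The arrays of each newborn and each weaned Cyp1b1-null group share 1 slide, while the lines compared lie on different slides. The spread of the 20-sample fit is therefore partly a spread within slides, and that fit does not separate line from slide. With the slide as a random block over all groups, 0 genes were called higher and 0 lower. Among the 10341 genes measured well above background on all 5 arrays, a 5-array fit called Ctse and Barhl2 higher and Sult1e1 lower. Where a gene named below passed in the 20-sample fit or with this stricter filter, that is said beside it. Several leading genes that are dim in Cyp1b1-null differed less with normexp background correction, which adds 50 units to every signal, followed by quantile normalization: Ctse by 2.23, Ren2 by 1.34, Ren1 by 0.93, Klk1b26 by 0.81 and Cfap20dc by 0.51.

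Ctse encodes cathepsin E, an intracellular aspartic protease, and its probe lies on chromosome 1 at 133571935 to 133571994 (mm9, the build of the array design). It read 0.51, 1.25 and 1.40 on the R-Cyp1b1-null arrays and -3.53 and -3.23 on the Cyp1b1-null arrays. All R-Cyp1b1-null arrays lay above both others, by 4.44 ± 0.38 (SE) on the log2 scale (adjusted p = 0.0692, limma; 0.0019 with the stricter detection filter; passed in the 20-sample fit). The deficient wild-type arrays on slides 1 and 2, beside R-Cyp1b1-null arrays 1 and 2, read -2.21 and -3.07, near the Cyp1b1-null level. The sufficient wild-type arrays (1 pool, slides 1 to 3) read -0.36, -0.02 and 0.94, nearer the R-Cyp1b1-null values. The difference between the mutant lines on the sufficient diet was 4.69.

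Ren1 and Ren2, the renin genes, whose near-identical sequences a probe may not separate, behaved alike. Ren1 read -0.36, -0.23 and -1.62 against -3.89 and -3.80, a difference of 3.11 ± 0.47, and Ren2 differed by 3.82 ± 0.52 (both adjusted p = 0.160, and both passed in the 20-sample fit). The third R-Cyp1b1-null array was not well above background for either gene. Deficient wild-type Ren2 read -4.83 and -5.45 on slides 1 and 2, below the 2 R-Cyp1b1-null arrays of those slides at -0.34 and -0.55. Sufficient wild-type arrays read -0.69, -0.19 and 0.69 for Ren1 and -0.60, -0.31 and 0.80 for Ren2. These values lay nearer R-Cyp1b1-null than Cyp1b1-null. Ren1 and Ren2 were chosen after their values were seen.

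Sult1e1, the oestrogen sulfotransferase, was the lowest-p gene in the other direction (probe on chromosome 5, 88005187 to 88005246, mm9). It read -0.46, -0.97 and -0.65 in R-Cyp1b1-null and 3.28 and 2.19 in Cyp1b1-null, a difference of -3.43 ± 0.41 (adjusted p = 0.160; 0.0192 with the stricter filter; 0.178 in the 20-sample fit). The Cyp1b1-null arrays stood apart from every other weaning group: wild-type arrays on the deficient diet read 1.06, 0.63 and -1.55, and Cyp1b1-null arrays on the sufficient diet read -0.27 and -0.92. Glod5, a glyoxalase-domain gene, differed in the same direction, at -1.82, -2.33 and -1.28 against 0.80 and 0.45 (difference -2.43 ± 0.40, adjusted p = 0.160).

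Wif1, a secreted Wnt inhibitor, was not well above background on any R-Cyp1b1-null array and read -0.83 and -1.47 in Cyp1b1-null. It was therefore at least 2.90-fold lower in R-Cyp1b1-null, where "at least" sets the dim arrays at their own detection limit, and the call passed in the 20-sample fit. It read -3.94 and -4.40 on the first 2 R-Cyp1b1-null arrays, and the wild-type arrays beside them read -3.09 and -2.76, between the lines.

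Barhl2, a homeobox transcription factor gene, read 0.97, -0.19 and -1.21 in R-Cyp1b1-null against -4.23 and -4.40, a difference of 4.17 ± 0.59 that passed in the 20-sample fit. Its second probe differed by 0.73, so the probes disagree on the size. Klk1b26, a kallikrein-family protease gene, differed by 2.15 ± 0.31 and Cfap20dc by 1.95 ± 0.31 (all adjusted p = 0.160), of which Cfap20dc passed in the 20-sample fit. It had 3 measured probes, with differences from 0.08 to 1.95. The wild-type arrays on slides 1 and 2 read 1.82 and 0.50 for Barhl2, -0.22 and -1.16 for Klk1b26 and -1.15 and -1.37 for Cfap20dc, close to R-Cyp1b1-null rather than Cyp1b1-null. The part of the slide in these 3 differences was not tested.

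Rad51b, a recombination repair gene, read 1.37, 1.41 and 2.12 against -0.55 and -0.87, a difference of 2.34 ± 0.37. Ptgds, a prostaglandin D synthase, differed by 2.43 ± 0.39, and both genes passed in the 20-sample fit. Wild-type values fell between the lines for Rad51b (0.00 and 0.38) and overlapped the R-Cyp1b1-null range for Ptgds (-0.35 and 0.50).

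**Figure D1:**
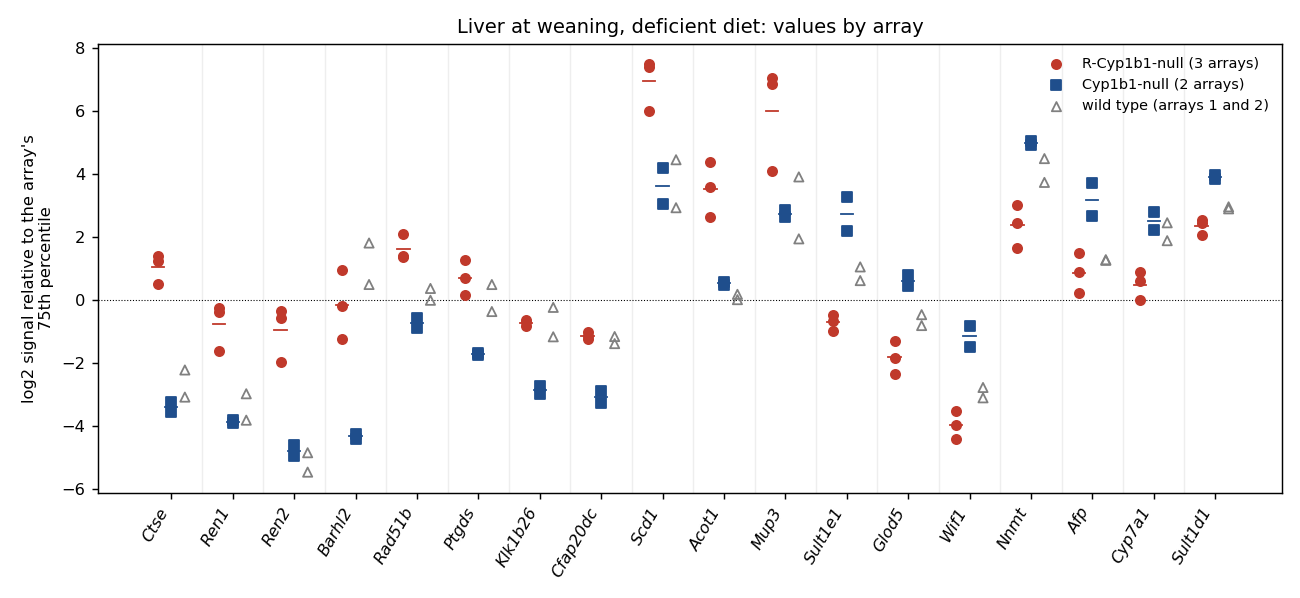
Log2 signal relative to the array's 75th percentile for 18 genes in weaned males on the deficient diet, with 1 point per array, a short line for each mutant line's mean, and wild-type arrays 1 and 2 as open triangles. R-Cyp1b1-null points lie clear of Cyp1b1-null points for each gene shown, and the wild-type points lie near Cyp1b1-null for Ctse, Ren1, Ren2, Scd1 and Acot1 but near R-Cyp1b1-null for Barhl2, Klk1b26 and Cfap20dc.

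Genes of fatty acid synthesis were higher in R-Cyp1b1-null livers. Of 33 tested lipogenesis genes, 24 lay above 0 and 9 below, and 14 had all R-Cyp1b1-null arrays above both Cyp1b1-null arrays with none the other way round. Over all genes, 23.9% showed that separation upward and 11% downward. These shares include dim genes: 10303 of the 17418 were well above background on all 5 arrays, and 2076 on no R-Cyp1b1-null array. Detection limits were higher on the R-Cyp1b1-null arrays, and the part of this in the upward share was not tested. In this list 31 of 33 genes were well above background on all 5 arrays. So were all 35 oxidative phosphorylation and all 30 amino acid genes tested below. Scd1, Elovl6 and Mlxipl were called higher in the 20-sample fit. The list median was 0.66, which was 0.52 above the median of all genes with percentile scaling, 0.59 above it with quantile normalization and 0.59 without the third R-Cyp1b1-null array. The list medians by array were 2.83, 3.93 and 3.23 in R-Cyp1b1-null and 2.34 and 2.35 in Cyp1b1-null.

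The start regions of 4 of these genes are shown because they carry binding sequences of known lipogenic regulators or lack them. Each is the 250 bases before the RefSeq start site (GRCm38.p6), on the gene's strand, with CCAAT, the sequence bound by NF-Y, a cofactor of the Srebf1 protein, in capitals on either strand (ATTGG on the other strand).
Fasn, chr11:120824548-120824797, minus strand: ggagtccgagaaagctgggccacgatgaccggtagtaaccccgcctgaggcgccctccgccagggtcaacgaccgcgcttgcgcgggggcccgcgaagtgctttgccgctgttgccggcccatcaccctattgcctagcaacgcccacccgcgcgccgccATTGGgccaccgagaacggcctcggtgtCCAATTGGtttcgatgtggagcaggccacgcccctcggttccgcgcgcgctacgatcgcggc
Elovl6, chr3:129532136-129532385, plus strand: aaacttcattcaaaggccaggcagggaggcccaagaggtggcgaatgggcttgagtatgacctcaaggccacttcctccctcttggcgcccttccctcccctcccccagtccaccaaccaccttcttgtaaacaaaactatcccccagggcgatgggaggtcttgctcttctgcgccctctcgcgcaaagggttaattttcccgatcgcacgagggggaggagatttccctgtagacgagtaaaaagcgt
Pnpla3, chr15:84167566-84167815, plus strand: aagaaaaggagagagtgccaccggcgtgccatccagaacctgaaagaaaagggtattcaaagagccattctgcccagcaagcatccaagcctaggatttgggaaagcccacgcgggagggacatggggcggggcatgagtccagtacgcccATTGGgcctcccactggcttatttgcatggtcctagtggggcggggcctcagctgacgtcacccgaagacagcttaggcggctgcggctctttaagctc
Acacb, chr5:114165268-114165517, plus strand: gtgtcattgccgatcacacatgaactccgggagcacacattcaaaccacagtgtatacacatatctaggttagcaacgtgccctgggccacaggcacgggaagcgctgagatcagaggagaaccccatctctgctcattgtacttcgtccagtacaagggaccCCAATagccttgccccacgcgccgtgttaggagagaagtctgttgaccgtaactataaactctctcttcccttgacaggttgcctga

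Fasn holds CCAAT in 3 places, 2 of which overlap on opposite strands, Pnpla3 and Acacb hold it once each, and Elovl6 lacks it in this window. Of 32851 promoters in the RefSeq table, 33.8% hold CCAAT in the 250 bases before the start, and 21 of 40 promoters of the lipogenesis list do (27 of its 35 genes had an entry). A sterol response sequence, TCACNCCAC, searched on both strands, was in 1.05% of all promoters and in 1 of the 40, and in none of the 4 shown. These matches describe the letters in these windows and were not measured as binding.

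Scd1, the stearoyl-CoA desaturase that makes oleate, differed most in the list (probe on chromosome 19, 44469387 to 44469446, mm9). It read 6.02, 7.49 and 7.40 in R-Cyp1b1-null against 3.07 and 4.20, a difference of 3.34 ± 0.55 or 10.1-fold (adjusted p = 0.160, limma). No R-Cyp1b1-null array overlapped the Cyp1b1-null arrays. Wild-type arrays on slides 1 to 3 read 2.94, 4.46 and 2.95, each below the R-Cyp1b1-null array of its slide.

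Elovl6, the elongase between Fasn and Scd1, read 2.32, 4.37 and 4.47 against 1.35 and 1.91, a difference of 2.09 ± 0.66. Pnpla3, a lipid droplet acylhydrolase, read -0.87, -0.07 and -0.21 against -2.66 and -2.26, a difference of 2.08 ± 0.37 (adjusted p = 0.160; 0.059 in the 20-sample fit; 1.06 with normexp). The first R-Cyp1b1-null array was the lowest of the 3 for both genes and still above Cyp1b1-null. Wild-type Pnpla3 overlapped R-Cyp1b1-null on slides 1 and 2, at -0.25 and -0.35.

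Acacb, the mitochondrial acetyl-CoA carboxylase, differed by 2.24 ± 0.66, Fasn by 1.56 ± 0.62 and Acly, the citrate lyase, by 1.20 ± 0.41, though the second Acly probe differed by 0.30. Mlxipl, whose product is the carbohydrate-responsive regulator of the pathway, read 5.67, 5.51 and 6.13 against 4.24 and 4.03 (1.63 ± 0.34). Wild-type Mlxipl on slides 1 and 2 read 5.35 and 5.51, near R-Cyp1b1-null. Srebf1 overlapped between lines, at 6.50, 7.19 and 7.71 against 6.30 and 6.81 (0.58 ± 0.43, adjusted p = 0.650). Acacb, Acly and Mlxipl were chosen after their values were seen.

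Fatty acid oxidation differed less. Of 40 tested genes of this list, 29 were above 0 and 11 below, with 12 separated upward (30% against 23.9% of all genes) and 3 downward (7.5% against 11%). The median was 0.19, which was 0.05 above all genes with percentile scaling and 0.20 above with quantile normalization. Acot1, a cytosolic acyl-CoA thioesterase and PPARA target, was the exception, at 2.64, 3.61 and 4.38 against 0.60 and 0.50 (2.99 ± 0.51, adjusted p = 0.160; passed in the 20-sample fit). Wild-type arrays on slides 1 and 2 read 0.02 and 0.19. Fgf21, the fasting hormone of the liver, read 0.04, 0.30 and 1.12 against -2.06 and -0.40 (1.72 ± 0.56, adjusted p = 0.259). Ppara itself differed by 0.04 ± 0.44, Cyp4a14, a PPARA target, by 0.60 ± 0.42, and Ppargc1a, a coactivator of oxidation genes, by -0.45 ± 0.39.

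Cholesterol synthesis genes were not higher on this diet. Of 30 tested genes 9 were above 0 and 21 below, with 1 separated upward (3.3% against 23.9% of all genes) and 5 downward (16.7% against 11%). The median was -0.18, or -0.31 relative to all genes and -0.14 with quantile normalization. Sqle, the squalene epoxidase, read 0.72, 3.33 and 2.31 against 2.83 and 2.89, and the lines overlapped (-0.74 ± 0.68, adjusted p = 0.714). Cyp51, the lanosterol demethylase, read -0.10, 1.03 and 0.65 against 1.24 and 1.26 (-0.72 ± 0.40). Lss, the lanosterol synthase, differed by -0.98 ± 0.64. The first R-Cyp1b1-null array was lower than the second for each of these 3 genes.

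Bile acid genes had a median of -0.16 over 24 tested (-0.29 relative to all genes, -0.22 with quantile normalization), 16 of them below 0. Of the 24, 8 separated downward (33.3% against 11% of all genes) and 2 upward (8.3% against 23.9%). Cyp7a1, the rate-limiting enzyme of bile acid synthesis, read 0.01, 0.89 and 0.60 in R-Cyp1b1-null against 2.24 and 2.80, with no overlap (-2.02 ± 0.39, adjusted p = 0.160; 0.059 in the 20-sample fit). Both of its probes gave this difference, at -2.02 and -1.99. Wild-type arrays on slides 1 and 2 read 2.46 and 1.89, at the Cyp1b1-null level.

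Amino acid and urea genes were lower in R-Cyp1b1-null than in Cyp1b1-null, with 24 of 30 below 0. Of the 30, 17 separated downward (56.7% against 11% of all genes) and 2 upward (6.7% against 23.9%). The median was -0.60, which was 0.73 below all genes with percentile scaling and 0.54 below with quantile normalization. Against the wild-type arrays on slides 1 and 2, the list's median difference was -0.13 and 0.04, so R-Cyp1b1-null read near wild type. The part of the slide was not tested. Bhmt, the betaine methyltransferase that remethylates homocysteine, read 7.0, 6.68 and 5.19 against 8.41 and 8.35 (-2.09 ± 0.54), and Oat, ornithine aminotransferase, differed by -1.27 ± 0.32. The members called in the 20-sample fit went the other way: Phgdh and Psat1, which make serine, were higher by 1.64 ± 0.46 and 1.41 ± 0.44. Without the third R-Cyp1b1-null array the list median stayed 0.46 below all genes. Bhmt, Phgdh and Psat1 were chosen after their values were seen.

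Drug-metabolism genes had 25 of 31 below 0, with 13 separated downward (41.9% against 11% of all genes) and 0 upward (against 23.9%). The median was -0.32, or -0.45 relative to all genes and -0.25 with quantile normalization. Against the wild-type arrays on slides 1 and 2, the list's median difference was 0.21 and -0.01, so R-Cyp1b1-null did not read below wild type there. Sult1d1, a sulfotransferase for catechols, read 2.56, 2.45 and 2.09 against 3.98 and 3.85 (-1.55 ± 0.32) and passed in the 20-sample fit. Cyp2a5, which hydroxylates coumarin, read 6.91, 6.97 and 6.40 against 8.11 and 7.71 (-1.15 ± 0.35, chosen after its values were seen). Cyp1a2, an Ahr target, read 3.13, 3.08 and 1.18 against 3.29 and 3.65 (-1.01 ± 0.61), with the third array setting most of that difference, and Cyp1a1 did not pass the detection filter in either line. Glutathione genes were split, 17 above and 15 below 0: Gpx2, a glutathione peroxidase, differed by 1.71 ± 0.34 (passed in the 20-sample fit), but was well above background on 2 of 3 R-Cyp1b1-null arrays and differed by 0.25 with normexp. Gstm3 and Gstp1, glutathione transferases of multigene families chosen after their values were seen, differed by 1.11 ± 0.40 and 1.05 ± 0.37.

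Oxidative phosphorylation genes had 28 of 35 below 0, with 9 separated downward (25.7% against 11% of all genes) and 0 upward (against 23.9%). The median was -0.19, or -0.32 relative to all genes and -0.13 with quantile normalization. Against the wild-type arrays on slides 1 and 2, the list's median difference was 0.02 and 0.02. Cox7c, a cytochrome oxidase subunit, differed by -1.51 ± 0.33 and passed in the 20-sample fit. Mature hepatocyte genes had a median of -0.27 (-0.41 relative to all genes, -0.21 with quantile normalization), with 20 of 33 below 0. Ribosomal protein genes had a median of 0.05, with Rps9 at 5.91, 5.89 and 4.04 against 6.06 and 5.99.

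**Figure D2:**
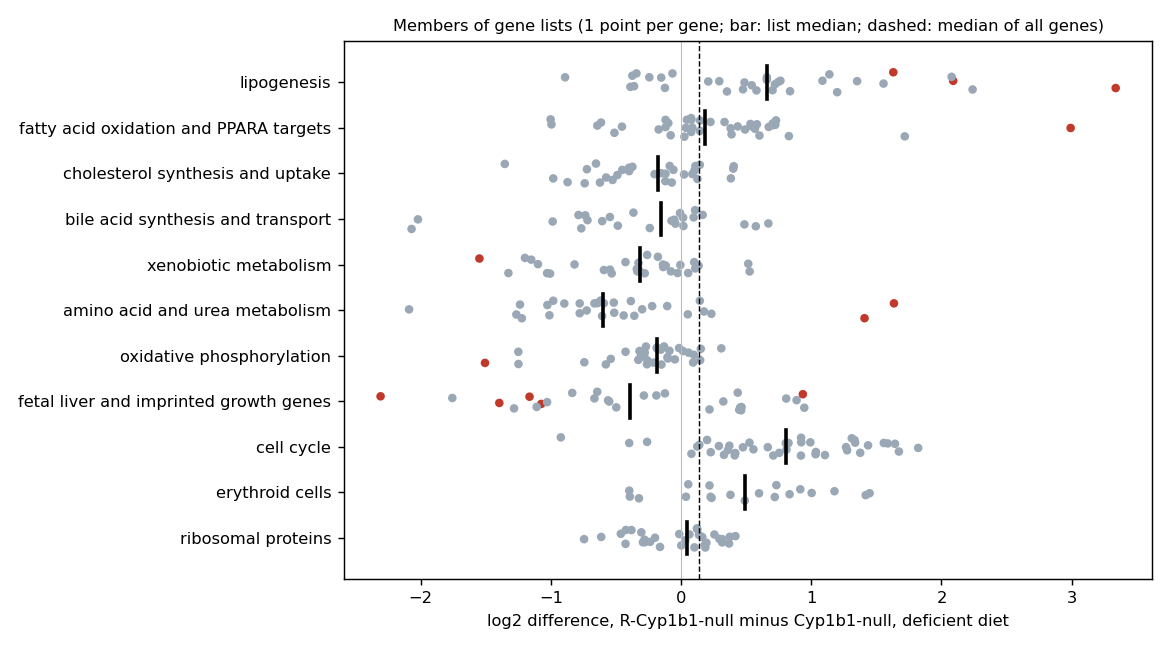
Log2 difference between the lines on the deficient diet for each tested member of 11 gene lists, with the list median as a bar and the median of all genes (0.13) as a dashed line; red points were called in the 20-sample fit. Lipogenesis (median 0.66) and cell cycle (0.81) lie to the right of the dashed line, and amino acid (-0.60), xenobiotic (-0.32) and fetal genes (-0.39) to the left.

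Several fetal and imprinted growth genes were lower in R-Cyp1b1-null. Of 28 tested, 17 were below 0, with 9 separated downward (32.1% against 11% of all genes) and 5 upward (17.9% against 23.9%). The median was -0.39, or -0.53 relative to all genes and -0.48 with quantile normalization. In the 20-sample fit, Afp, Bex4, Cdkn1c and Gpc3 were called lower and Igf2bp2 higher. Afp, the fetal serum albumin homologue, read 0.24, 0.90 and 1.51 against 2.66 and 3.72 (-2.31 ± 0.49, adjusted p = 0.160; 4.95-fold). Wild-type arrays on slides 1 and 2 read 1.27 and 1.29, inside the R-Cyp1b1-null range. Cdkn1c, an imprinted cell cycle inhibitor, differed by -1.16 ± 0.34, Gpc3, a glypican of fetal liver, by -1.07 ± 0.36 and Bex4 by -1.40 ± 0.32. These 3 and Igf2bp2 were chosen after their values were seen.

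Igf2, the fetal growth factor, read -1.94, -2.46 and -1.60 in R-Cyp1b1-null and -1.48 and 0.99 in Cyp1b1-null (-1.76 ± 0.68, adjusted p = 0.350). One Cyp1b1-null pool lay just above the R-Cyp1b1-null arrays and the other well above them. Growth hormone axis genes had a median of -0.07. Of 24 tested, 7 separated downward (29.2% against 11% of all genes) and 3 upward (12.5% against 23.9%). Socs2, a growth hormone target, read 2.85, 2.09 and 1.45 against 3.89 and 3.06 (-1.35 ± 0.48), but its second probe differed by 0.44.

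Genes biased by sex in adult liver did not move as a block, with medians of 0.10 for 22 male-biased and 0.05 for 23 female-biased genes. Mup3, a major urinary protein gene of a near-identical family, read 4.09, 7.05 and 6.87 against 2.86 and 2.64 (3.26 ± 0.83; passed in the 20-sample fit). Hsd3b5, a male-specific hydroxysteroid dehydrogenase, differed by 2.76 ± 0.67. Both were chosen after their values were seen. Susd4, a complement regulator in the male-biased list, was lower, by -1.63 ± 0.33, and Nnmt, which methylates nicotinamide and is in the female-biased list, read 1.65, 3.03 and 2.47 against 4.95 and 5.07 (-2.62 ± 0.44). Susd4 and Nnmt passed in the 20-sample fit. Wild-type Nnmt on slides 1 and 2 was 4.50 and 3.74, above R-Cyp1b1-null.

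Cell cycle genes were higher by list: 39 of 42 were above 0, with a median of 0.81, 0.67 above all genes and 0.70 above with quantile normalization. None was called in the 20-sample fit, and 13 separated upward (31.0% against 23.9% of all genes) and 1 downward. Nusap1, a spindle protein gene and the member of smallest p, read -0.69, -0.17 and 0.66 against -1.80 and -1.01 (1.34 ± 0.47, adjusted p = 0.304). Aurka, a mitotic kinase, read 1.19, 1.95 and 3.68 against 0.12 and 0.78, and Mki67, a proliferation marker, 1.99, 2.89 and 4.07 against 1.35 and 1.87. Both were chosen after their values were seen. For all 3 genes the third, dimmest R-Cyp1b1-null array was highest, and without it the list median stood 0.53 above all genes. The medians by array, 0.33, 1.32 and 1.88 against -0.07 and 0.62, overlapped between lines.

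Both lists of vitamin A genes had medians near that of all genes (0.06 and -0.04 relative to it). Retinoid metabolism and transport genes had a median of 0.19 over 32 tested (20 above and 12 below 0), and retinoid receptors and response genes a median of 0.09 over 18. Of the 32, 3 separated upward (9.4% against 23.9% of all genes) and 6 downward (18.8% against 11%). Of the 18, 5 separated upward (27.8%) and 0 downward. Rdh16, of the first list, differed by -1.01 ± 0.33, and Rara, of the second, by 0.94 ± 0.34, both without overlap. Rara turned to -0.99 with quantile normalization. Both genes were named after their values were seen. Cyp26a1, the retinoic acid hydroxylase that retinoic acid itself induces, was not well above background on any of the 5 arrays. Rbp4, the plasma retinol carrier, differed by 0.32 ± 0.33. Lrat, which makes retinyl esters, read -0.29, -0.52 and -0.91 against 0.40 and 0.12 (-0.83 ± 0.34, adjusted p = 0.375), but its second probe differed by 0.08.

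Aldh1a1, a retinaldehyde dehydrogenase, differed by 0.93 ± 0.44, Dhrs3, a retinaldehyde reductase, by 0.34 ± 0.39, Stra6, the retinol receptor, by 0.49 ± 0.49, and Rarb, a retinoic acid receptor and target, by -0.13 ± 0.33. Dhrs9, a retinol dehydrogenase, and Rarg, a retinoic acid receptor, were called higher in the 20-sample fit, by 1.54 ± 0.46 and 2.09 ± 0.43. Both were dim: Dhrs9 was well above background on 1 and Rarg on 2 of the 3 R-Cyp1b1-null arrays, Dhrs9 turned to -0.26 with quantile normalization, and the 4 Rarg probes ran from -1.48 to 2.09. The brighter Cyp1b1 probe read 0.04, 0.35 and 0.14 against -0.87 and 0.81, a difference of 0.21 ± 0.50, while a second Cyp1b1 probe differed by 1.61. The first probe read -3.07 and -4.03 in wild type on slides 1 and 2, below both lines that carry the deletion. The sources used here do not place either probe inside or outside the deleted part, so they do not check the deletion.

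Hamp, which encodes the iron hormone hepcidin, read -0.63, -0.54 and 5.67 against 0.27 and -0.71, and Hamp2 read 2.71, 2.46 and 5.75 against 3.22 and 3.41. The third R-Cyp1b1-null pool alone stood high for both, and without it the differences were -0.36 and -0.73. Nnt, the mitochondrial transhydrogenase, differed by 0.52 ± 0.37 (0.22 over the mean of its 3 probes), and the leptin receptor Lepr by -0.66 ± 0.39. Lep, the leptin gene of fat cells, was called higher in the 20-sample fit (1.22 ± 0.30) but was well above background on 1 of 3 R-Cyp1b1-null arrays and differed by 0.06 with quantile normalization.

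Of the remaining lists, immediate early genes had a median of -0.34, with Klf4, a stress-responsive transcription factor gene, lower by -1.33 ± 0.39 (passed in the 20-sample fit, as did Fosb). Medians lay between -0.16 and 0.20 for glucose metabolism, the circadian clock, ER stress and heat shock, acute phase and complement, interferon response and iron metabolism. Their members of smallest p were Ppp1r3g, a glycogen-targeting phosphatase subunit (1.64 ± 0.35), Bhlhe41, a clock repressor (1.98 ± 0.46), Chac1, which degrades glutathione (1.44 ± 0.38), Lcn2, an acute phase siderophore binder (-1.03 ± 0.39), Ifit1, an interferon target (-0.57 ± 0.31), and Slc25a37, the mitochondrial iron importer (1.49 ± 0.43). Bhlhe41 and Ifit1 were well above background on 2 and Lcn2 on 1 of the 3 R-Cyp1b1-null arrays. With every array set to a common floor these 3 differences were 0.03, -0.13 and 0.

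Of the markers of other cell types, erythroid and skeletal muscle genes read higher in R-Cyp1b1-null with percentile scaling, but little so with normexp or a common floor. Of 19 tested erythroid genes, 16 were above 0, with a median of 0.49 (0.35 relative to all genes, 0.16 with quantile normalization). Relative to all genes it was 0.13 with normexp and 0.06 with the common floor. Of these erythroid genes, 9 separated upward (47.4% against 23.9% of all genes). Their summed signal was 1235, 1833 and 1709 times the 75th percentile in R-Cyp1b1-null and 1280 and 1284 in Cyp1b1-null, which overlap. Fewer cells of a type and less RNA per cell cannot be told apart in such bulk tissue. Of 17 tested skeletal muscle genes, 15 were above 0, with a median of 0.42 (0.28 relative to all genes, 0.09 with quantile normalization). Relative to all genes it was 0.03 with normexp and 0.05 with the common floor. Of these muscle genes, 7 separated upward (41.2% against 23.9% of all genes) and 0 downward (against 11%). Their summed signals of 10.69, 6.49 and 5.89 against 4.56 and 4.19 did not overlap, but 2 of the 17 were well above background on all 5 arrays. Against the wild-type arrays on slides 1 and 2, the median difference was -0.10 and -0.39 for muscle and 0.04 and 0.41 for erythroid genes. The part of erythroid and muscle cells in the other differences was not tested. Medians were 0.26 for adipocytes, 0.23 for endothelial cells, 0.22 for lymphocytes, 0.13 for neutrophils, 0.03 for intestinal epithelium, 0.02 for cholangiocytes, -0.02 for macrophages, -0.17 for matrix and stellate genes and -0.36 for exocrine pancreas. Among the members of smallest p were Slc4a1 (1.42 ± 0.35), Tcap (2.67 ± 0.57), Pecam1 (-0.94 ± 0.31), Cd3e (-1.98 ± 0.45), Retnlg (1.63 ± 0.36), Lgals4 (1.81 ± 0.47), H2-Aa (-1.15 ± 0.50) and Postn (-0.92 ± 0.30), of which Lgals4 passed in the 20-sample fit. Pecam1 and Cd3e ran against their lists: 18 of 25 endothelial genes were above 0 (7 separated upward, 2 downward), as were 20 of 29 lymphocyte genes (9 and 2). Prf1 of the lymphocyte and Cxcr2 of the neutrophil list, named after their values were seen, were called higher in the 20-sample fit. They differed by 0.17 and 0.88 with quantile normalization. Tcap and Retnlg were well above background on 2 of 3 R-Cyp1b1-null arrays and differed by 0.24 and 0 with the common floor, and Pnlip, the exocrine pancreas gene of smallest p, was not well above background on any of the 3. The 5 tested genes of the Y-linked and Xist list had a median of -0.01, with Uty not well above background on any R-Cyp1b1-null array.

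On the sufficient diet the same lines differed differently. Because the third R-Cyp1b1-null sufficient array correlated with other weaning arrays at a median of only 0.54, the values below leave it out, and they are given side by side with no test between diets except the interaction fit. Lipogenic differences were larger there: Scd1 4.75 against 3.34 on the deficient diet, Elovl6 4.74 against 2.09, Pnpla3 4.74 against 2.08 and Fasn 3.58 against 1.56, and the list median was 1.38 against 0.66. Cholesterol genes had a median of 1.58 with 25 of 30 above 0 on the sufficient diet, against -0.18 and 9 of 30 on the deficient diet. Sqle read 1.79 and 3.23 in R-Cyp1b1-null and -2.45 and -1.64 in Cyp1b1-null on the sufficient diet, and the Cyp1b1-null arrays then reached 2.83 and 2.89 on the deficient diet. The list's median diet difference was 1.61 in Cyp1b1-null and -0.19 in R-Cyp1b1-null.

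Igf2 and Afp followed the same layout in the other direction. Igf2 read 3.72 and 3.59 in sufficient Cyp1b1-null livers and -1.72 and -1.98 in R-Cyp1b1-null, a difference of -5.51 against -1.76 on the deficient diet. Afp differed by -4.45 on the sufficient and -2.31 on the deficient diet. Ctse (4.69 and 4.44), Ren1 (3.57 and 3.11), Rad51b (2.32 and 2.34), Wif1 (-2.76 and -2.81), Susd4 (-1.62 and -1.63) and Cox7c (-1.50 and -1.51) differed by similar amounts on both diets. Cyp26a1 read 0.84 and 0.22 in R-Cyp1b1-null and -3.78 and -3.64 in Cyp1b1-null on the sufficient diet, a difference of 4.24, and was not well above background in either line on the deficient diet.

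**Figure D3:**
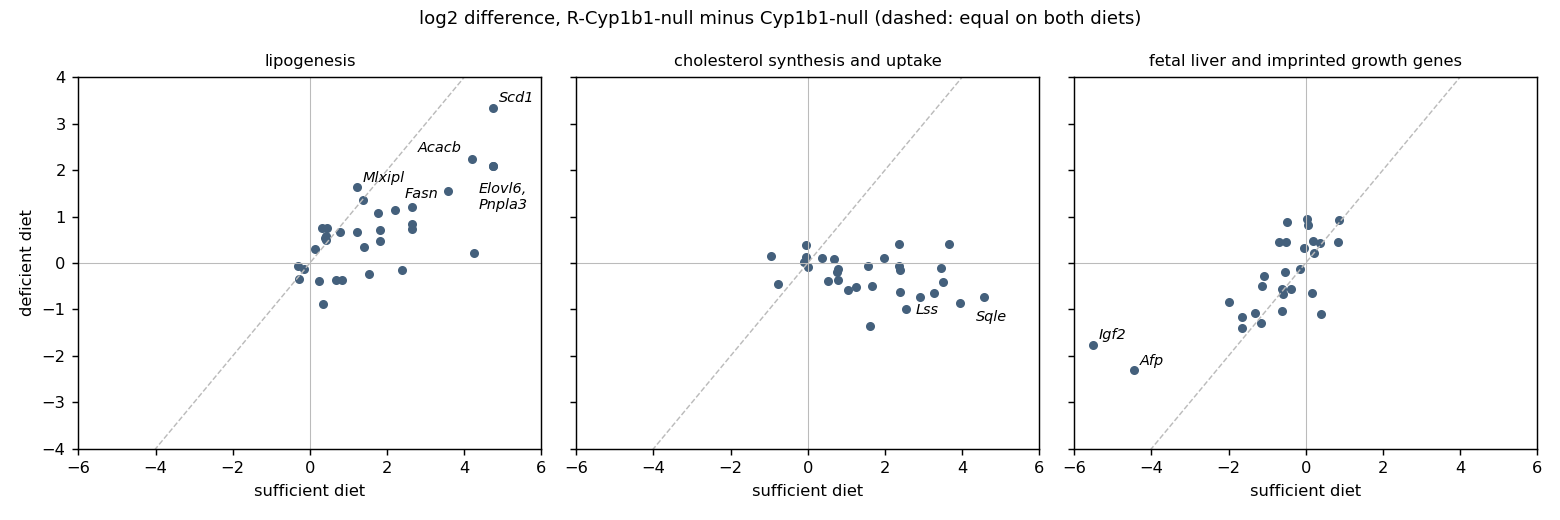
Line difference (log2, R-Cyp1b1-null minus Cyp1b1-null) for members of 3 lists on the sufficient diet (x axis, without the third R-Cyp1b1-null array) and the deficient diet (y axis); the dashed line marks equal differences. Of 33 lipogenic genes 24 lie below the dashed line, and 24 are above 0 on the y axis, cholesterol genes spread along the x axis (list median 1.58) but sit near 0 on the y axis (-0.18), and Igf2 and Afp lie far left.

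The interaction, the diet effect in R-Cyp1b1-null minus the diet effect in Cyp1b1-null, was fitted over the 10 mutant weaning arrays, where each line's diets share slides. Of 19659 genes 0 were called (0%; 63 at unadjusted p under 0.05). Without the R-Cyp1b1-null array of low correlation, 1 gene was called (0.00509%; 408 at unadjusted p under 0.05): Ifi202b, an interferon-inducible gene (probe on chromosome 1, 175892953 to 175893982, mm9). Its interaction was -6.43 ± 0.69 with all 10 arrays (adjusted p = 0.0820, limma) and -6.30 ± 0.52 with 9 (adjusted p = 0.0215). With the slide as a block in the 9-array fit, 0 genes were called (1398 at unadjusted p under 0.05) and Ifi202b was at -6.08 ± 0.42 (adjusted p = 0.0884, limma).

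Ifi202b read -0.59, -0.45 and -1.19 in R-Cyp1b1-null and -0.82 and -1.29 in Cyp1b1-null on the deficient diet, where the lines overlapped. On the sufficient diet it read -0.38, -1.23 and -0.43 in R-Cyp1b1-null and -7.57 and -7.26 in Cyp1b1-null, where it was not well above background. Deficient Cyp1b1-null livers were thus at least 22.6-fold above sufficient ones, on the same slide. The other genes of smallest p in this fit were Trmt61b, Pak6 (whose line difference on the deficient diet, 2.11, passed in the 20-sample fit), Cyp51, Igf2 and Sult1e1, with interactions of -5.97, 2.27, -3.01, 3.80 and -3.90 (adjusted p = 0.860 each). Trmt61b was not well above background on either sufficient Cyp1b1-null array or on any deficient R-Cyp1b1-null array. It was so on 1 of the 3 sufficient R-Cyp1b1-null arrays. Sult1e1 rested on the Cyp1b1-null line, where the deficient arrays read 3.33 above the sufficient ones on average.

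**Figure D4:**
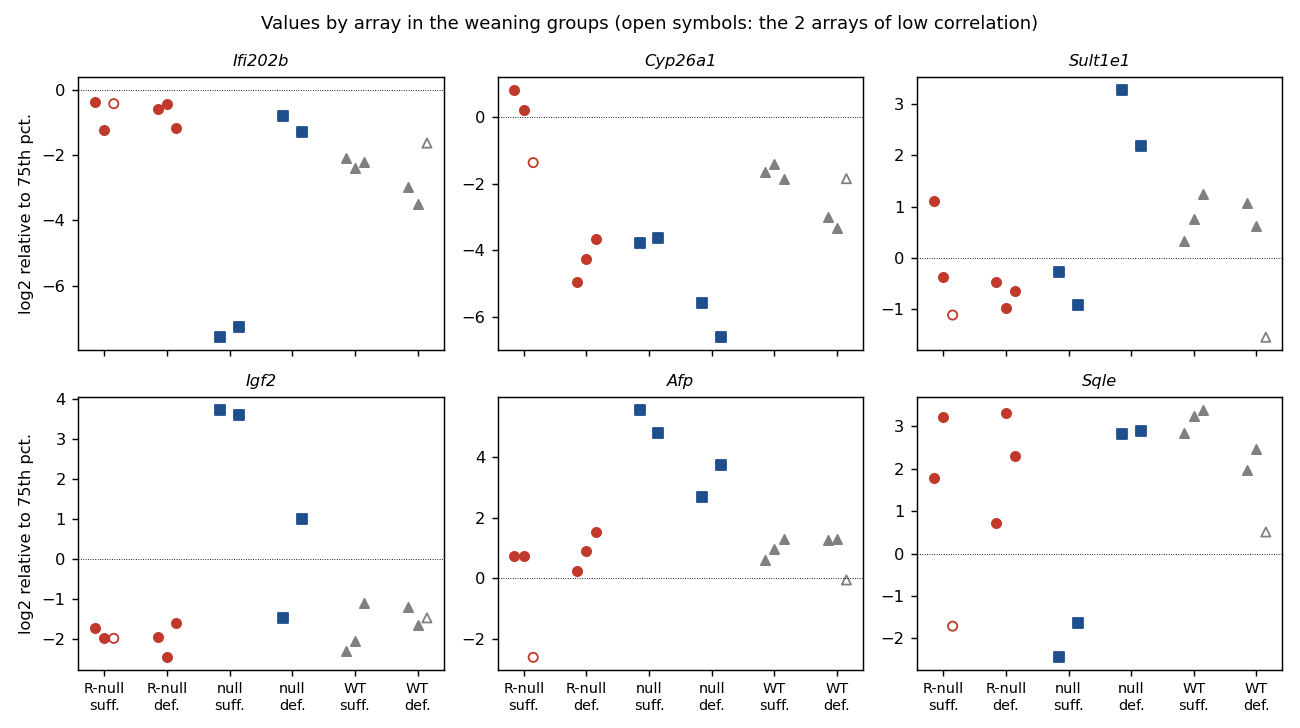
Log2 signal relative to the 75th percentile for 6 genes on every weaning array, by line (R-null, null and wild type, WT) and diet (sufficient or deficient), with the 2 arrays of low correlation as open symbols; the 3 sufficient wild-type arrays are 1 pool. With the open symbols left out, sufficient Cyp1b1-null livers stand apart for Ifi202b, Igf2 and Sqle, and deficient Cyp1b1-null livers for Sult1e1.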

How the data were processed

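Single-colour (Cy3) arrays were read by the authors with Agilent Feature Extraction 10.7.3.1, per the file headers. The deposited files hold the intensity of each spot after background subtraction, with a flag for outliers and one for clear signal over background. The submitters' processing notes name Agilent Feature Extraction and limma. The deposited series table held the same intensity within a relative difference of 0.00497.

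From these, log2 intensity minus that of the array's 75th percentile was computed over non-control spots (279 outlier spots on the 5 arrays were dropped), and replicate spots were averaged per probe. A gene was tested if 1 of its probes clearly exceeded background across all arrays of either group, and the brightest such probe stood for the gene. Names came from RefSeq GRCm38.p6 accessions (27816 of 41174 probes), current symbols (5503), synonyms (380) or the file (7475). Group means were fitted with limma 3.58.1 in R 4.3.3 and p-values adjusted by Benjamini-Hochberg. Fits were tested on simulated data with independent noise of equal spread on every array. That simulation held no slide effect and no detection limit, so it does not show how the fits behave under either. Where a probe was dim on all arrays of a group, the "at least" fold puts each of these arrays at its lowest clearly detected signal, or at the probe's own value if that is higher.

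Named genes were the study's question genes, the 10 of smallest p (no gene being called), the member of smallest p of each list and 6 of the interaction; others are said to have been chosen after their values were seen. Some of these genes are not reported here. The comparison, members and lists were chosen with earlier results of these data known.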

Additional observations from a re-analysis of the deposited data

Results flagged for a closer look

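Ifi202b was the gene whose diet effect differed between the lines past the test in 1 of the fits: without the R-Cyp1b1-null sufficient array of low correlation, the diet effect in R-Cyp1b1-null minus that in Cyp1b1-null was -6.30 on the log2 scale (adjusted p = 0.0215, limma), and with that array it was -6.43 (adjusted p = 0.0820). With the slide as a block and without that array it was -6.08 (adjusted p = 0.0884), so the call was lost, and over the other settings the adjusted p ran up to 0.971. The value rests on the 2 sufficient Cyp1b1-null arrays, where the probe was not well above background, so its size beyond the bound given above is not measured. Groups of 2 and 3 arrays are too small to test for single outlying arrays gene by gene. The array left out here was set apart by its low correlation over all probes.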

How the results depend on the processing

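Genes called higher and lower numbered 0 and 0 with all 10 groups, the 4 mutant groups, normexp with quantile normalization, the authors' series table, averaged probes and the slide as a random block. They numbered 584 and 141 in the 20-sample fit, 9 and 246 with quantile normalization, 8628 and 98 with no filter on dim probes (27337 genes, where the R-Cyp1b1-null arrays sit at higher floors), and 2 and 1 when all 5 arrays had to be well above background. Leaving out each array in turn gave 0 to 174 higher and 0 to 14 lower, the highest counts being without the third R-Cyp1b1-null array. Chosen after seeing the data, a common floor at the highest detection limit gave 0 and 3, and the 20-sample fit without that array gave 853 and 287. With the replicate block the counts were 0 and 0; samples of the lines share only a number, the deviations of the 2 same-numbered pairs correlated at 0.23 and 0.26, and the block gives the third R-Cyp1b1-null array no weight.

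The interaction called 0 genes with quantile normalization, the slide as a block (also without the sufficient array of low correlation, a fit chosen after seeing the data) and the replicate block, and 0 to 1 when each array was left out. Of 1713 values of named genes under the alternatives, 1573 kept direction and call, 120 passed the threshold that the 5-array fit missed and 20 changed sign. Sign changes were -0.032 for Cyp1b1, -0.035 for Rbp4, -0.011 for Ppara, -0.019 for Lep and -0.35 for Uty with normexp, -0.26 for Dhrs9 and -0.52 for Uty with quantile normalization, and 0.11 for Rarb with averaged probes. Under the replicate block and in the 20-sample fit without the third R-Cyp1b1-null array, Hamp was -0.36, Hamp2 -0.73 and Ppara -0.35. Leaving out each array gave ranges of -0.63 to 1.05 for Cyp1b1, -0.15 to 1.13 for Stra6, -0.28 to 0.016 for Rarb, -0.36 to 2.79 for Hamp, -0.73 to 0.92 for Hamp2 and -0.35 to 0.28 for Ppara. The causes were not tested. Signals near the detection limit of the third R-Cyp1b1-null array limit what can be compared.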
